A study of Mus musculus with 4 samples.

Results

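The 10 collagen genes Col1a1, Col1a2, Col3a1, Col4a1, Col4a2, Col5a1, Col5a2, Col6a1, Col6a2 and Col6a3 were followed in chimeric eCLIP-seq of mouse plantaris muscle. Every entry that overlapped the GRCm38 (mm10) RefSeq span of one of these genes on its own strand was taken, whatever its miRNA. An entry is a peak bound by Ago2 together with 1 miRNA that was ligated to the target RNA in that peak. The collagen genes held 1898 of the 93468 entries of the control library and 1761 of the 100897 entries of the mimic library, and all 10 genes were read in both. The muscles came from adult male C57BL/6J mice, 5 months old, after 10 days of mechanical overload (MOV), in which part of the gastrocnemius-soleus complex is removed so that the plantaris carries more load. The control plantaris had received a control lentivirus and the mimic plantaris a lentivirus encoding a miR-1a-3p mimic, both with a CMV promoter and a TurboGFP reporter, a promoter that is not restricted to muscle fibers. There was 1 library per group and no unoperated group, and the input libraries of both groups were not analysed here. Per the methods each mouse was injected with both viruses, the control on the left side and the mimic on the right. Whether the muscles of these 2 libraries came from the same mouse was not stated in the sources used here.

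Collagens are triple-helical proteins of the extracellular matrix. Types I, III and V form the fibrils that carry tension between muscle fibers and into the tendon, type IV forms the sheet-like network of the basement membrane around each fiber, and type VI forms beaded microfilaments that link that membrane to the fibrils. In muscle the fibrillar genes are expressed mainly by fibroblasts and related cells rather than by the fibers. A miRNA guides Ago2 to an RNA chiefly through its seed, bases 2 to 8, and miRNAs with the same seed are treated as a family below. The miR-29 family is known for repressing many matrix genes, and miR-1, miR-133 and miR-206 are enriched in muscle cells.

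The mature miRNAs shown here are those that led the reads on the collagen genes. They were taken from RefSeq (GRCm38.p6), 5′ to 3′, with the seed in capitals. Of the 253 miRNA names found on the collagen genes, 217 had an entry in that table. The coordinates given are those of 1 locus per miRNA, such as Mir29b-2 for miR-29b-3p, and further loci of the same miRNA are not listed. For the miR-29 family they are chr6:31062673-31062694 (minus strand) for miR-29a-3p, chr1:195037091-195037113 (plus) for miR-29b-3p and chr1:195037600-195037621 (plus) for miR-29c-3p. The members of this family differ only outside the seed.
miR-29a-3p: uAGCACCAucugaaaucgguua
miR-29b-3p: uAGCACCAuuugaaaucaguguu
miR-29c-3p: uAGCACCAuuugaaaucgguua
The other leading families are shown by 1 member each, from chr1:20682834-20682855 (plus) for miR-133b-3p, chr10:126995543-126995564 (plus) for miR-26a-5p, chr15:85706616-85706637 (plus) for let-7c-5p, chr14:61631936-61631957 (minus) for miR-16-5p, chr1:162217883-162217904 (plus) for miR-199a-3p and chr1:20679055-20679076 (plus) for miR-206-3p. The name miR-133a-3p was counted with miR-133b-3p as the miR-133 family, and miR-1a-3p with miR-206-3p as the miR-1 family.
miR-133b-3p: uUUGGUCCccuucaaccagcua
miR-26a-5p: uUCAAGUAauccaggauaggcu
let-7c-5p: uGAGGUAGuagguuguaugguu
miR-16-5p: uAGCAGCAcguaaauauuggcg
miR-199a-3p: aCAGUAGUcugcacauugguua
miR-206-3p: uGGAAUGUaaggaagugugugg
The control library named miR-199b-3p and never miR-199a-3p, while the mimic library did the reverse. The table has the same mature sequence for both names, so they were pooled as miR-199-3p.

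Together the 10 genes held 5086 of 232408 chimeric reads in the control, or 2.19% (95% Clopper-Pearson interval 2.13 to 2.25%), and 5098 of 259207 in the mimic, or 1.97% (1.91 to 2.02%). All intervals in this text cover counting error only, and with 1 library per group there was no replicate check on any difference between the libraries. Most of these reads lay on 3 genes. Among all genes ranked by reads over both libraries, Col1a1 was number 10, Col3a1 number 15 and Col1a2 number 18, and Col6a2, the lowest of the 10, was number 301. Per kilobase of transcript, Col1a1 had 307 control and 321 mimic reads, Col3a1 had 229.9 and 206.4, and Col1a2 had 173 and 178. The intervals of these 3 genes lay apart from each other in both libraries. The other 7 genes had between 11.5 reads per kilobase, for Col4a1 in the control, and 36.1, for Col6a3 in the mimic. In the control the order from Col6a3 downward was Col5a1, Col5a2, Col6a1, Col4a2, Col6a2 and Col4a1, and the intervals of neighbours in it overlapped. A read records an Ago2-bound RNA ligated to its miRNA, so these levels are not expression, and fewer cells of a type cannot be told apart from less RNA per cell in whole muscle.

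**Figure D1:**
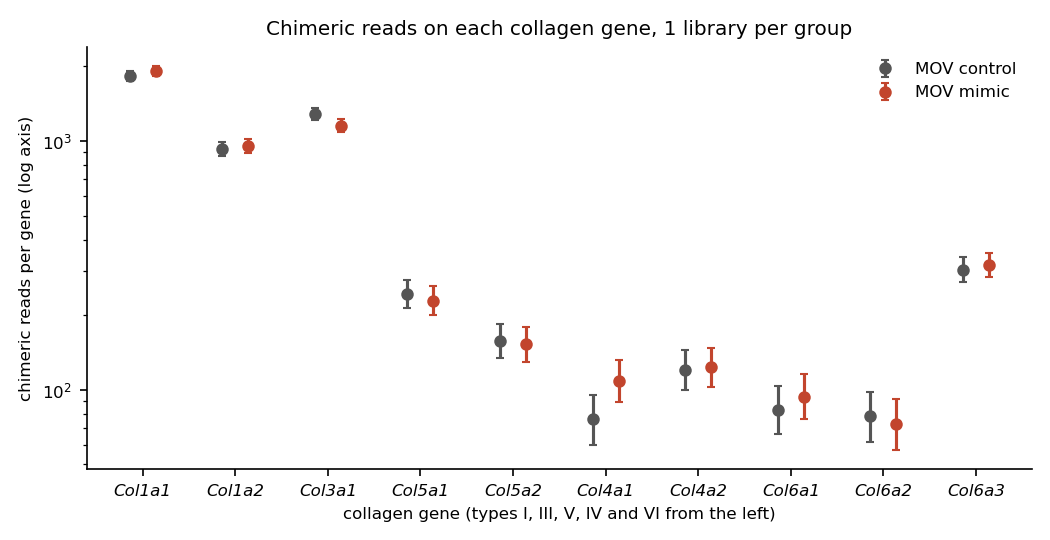
Chimeric reads on each of the 10 collagen genes (log axis) in the MOV control library (grey) and the MOV mimic library (red), with 95% Poisson intervals. Col1a1, Col1a2 and Col3a1 lie between 925 and 1902 reads, and the other genes between 72.5 and 317 reads.

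The reads were gathered at few places. When overlapping peaks of both libraries were merged, the 10 genes had 158 bound positions, 88 of them read in both libraries, 36 in the control only and 34 in the mimic only. The positions read in a single library had a median of 2.84 reads against 31.2 reads for the shared ones, and the deepest of them, on Col1a2, had 31.1 reads. The 38 positions that ended within 2000 nt of the 3′ end of the gene span held 65.7% of control and 66.8% of mimic reads on the collagens. At 76 of the 88 shared positions, and at 32 of the 33 positions with at least 50 reads over both libraries, the same seed family led in both libraries. The RefSeq spans carry no exons here, so whether a position lay in coding sequence, an intron or a UTR was not analysed.

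Col1a1 and Col1a2 encode the α1 and α2 chains of type I collagen, the main fibrillar collagen of muscle connective tissue and tendon. Col1a1 (chr11:94936224-94953042) had 1821 control and 1902 mimic reads, and the miR-133 family led them. That family had 639 of the control reads, or 35.1% (32.9 to 37.3%), and 734 of the mimic reads, or 38.6% (36.4 to 40.8%). Nearly all of them lay at 1 position, chr11:94951715-94951878, which ended 1164 nt before the 3′ end of the gene. There the control had 987 reads and the mimic 1073, with the miR-133 family making up 62.1% and 65.6% of them, and this position held 55.3% of all reads on Col1a1. With 370 reads in the control peak and 456 in the mimic peak, miR-133a-3p at this position was the entry with the most reads on any collagen gene. It was also the collagen position with the most miR-1a-3p, at 44.0 control and 48.7 mimic reads. The second position of Col1a1, chr11:94952691-94952877 near the 3′ end, was led by miR-29, with 79.6 of 255 control reads and 79.9 of 238 mimic reads. The third, chr11:94937913-94938069 near the start of the gene, was led by miR-26, with 57.3 reads of 158 and 48.3 of 175. A position between them, chr11:94951506-94951562, was almost wholly bound by let-7, which made up 88.3% of its 93.3 reads in the control and 88.0% of its 104 reads in the mimic.

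Col1a2 (chr6:4505618-4541543), whose product pairs with that of Col1a1 in the same triple helix, had a different set of miRNAs. Its reads numbered 925 (control) and 953 (mimic). The miR-26 family led with 243 reads, 26.2% of the gene (23.5 to 29.2%), in the control and 197 reads, 20.6% (18.1 to 23.4%), in the mimic. Most of them lay at chr6:4540536-4540656, 887 nt before the 3′ end, where miR-26 had 210.0 of 286 control reads and 144 of 211 mimic reads. The next position, chr6:4538628-4538727, was led by miR-199-3p with 91.7 control and 79.7 mimic reads. The third, chr6:4505782-4505906, lay at the start of the gene and was led by the miR-15/16 family with 80.5 reads and 56.8 reads. The miR-133 family, first on Col1a1, made up 3.54% of control and 7.45% of mimic reads on Col1a2. The profiles of this pair over all miRNA names had a cosine of 0.357, on a scale where 1 is the same profile.

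Col3a1 (chr1:45311538-45349706) encodes type III collagen, which is abundant in compliant tissue and early in repair, and carried more miR-29 reads than any other collagen gene. Its reads were 1279 (control) and 1148 (mimic). The miR-29 family had 395 and 397 of them, or 30.8% (28.4 to 33.5%) and 34.5% (31.8 to 37.4%), so that Col3a1 alone held 53.3% and 52.1% of the miR-29 reads on the 10 genes. The position with the most reads, chr1:45348896-45349025, 681 nt before the 3′ end, had 479 control and 425 mimic reads, 70.4% and 77.04% of them miR-29. In that position miR-29a-3p was read 195 and 212 times, miR-29b-3p 88.2 and 66.2 times, and miR-29c-3p 53.6 and 49.3 times. A second miR-29 position lay near the start of the gene at chr1:45311641-45311773, with miR-29 at 46.5 of 131 control reads and 56.4 of 125 mimic reads. Between the main miR-29 position and the 3′ end lay a let-7 position, chr1:45349093-45349215, with 252 control and 189 mimic reads, 81.8% and 87.7% of them let-7. The miR-133 family led chr1:45347647-45347876 with 49.5% of 116 reads and 48.6% of 135 reads, and the miR-27 family led chr1:45321498-45321695 with 62.1% of 127 reads and 44.8% of 115 reads.

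Col5a1 and Col5a2 encode chains of type V collagen, a minor fibrillar collagen that starts fibrils of type I and limits their width. Col5a1 (chr2:27886381-28039510) had 243 control and 228 mimic reads, led by let-7 with 92.4 and 70.1 reads. Its main position, chr2:28036960-28037149, had 92.6 and 72.2 reads, 89.5% and 84.0% of them let-7. A position near the gene start, chr2:27886826-27886930, had 46.0 and 61.8 reads and was led by the miR-15/16 family with 62.1% and 61.7%. Col5a2 (chr1:45374331-45503282, minus strand) lies beside Col3a1 on the chromosome and had 157 and 152.0 reads. It was led by miR-26, with 73.9 reads or 47.0% (39.1 to 55.25%) in the control and 77.2 reads or 50.8% (42.4 to 58.9%) in the mimic. Nearly all of these lay at chr1:45375925-45376071, which held 57.5% of the gene's reads. In miRNA profile Col5a2 was closer to Col1a2, with a cosine of 0.776 over miRNA names, than to Col5a1, its partner in type V, with 0.172.

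Col4a1 and Col4a2 encode the α1 and α2 chains of type IV collagen, the scaffold of the basement membrane. The 2 genes lie head to head on opposite strands of chromosome 8 and share a short stretch at their starts, where entries were told apart by strand. Col4a1 (chr8:11198423-11312889, minus strand) had 75.8 control and 109 mimic reads, and 70.1% of them lay at chr8:11199623-11199844. There miR-29 had 20.5 of 48.3 control reads and 39.6 of 81.0 mimic reads. Col4a2 (chr8:11312805-11449287) had 120.2 and 123 reads, led by let-7 with 68.9 reads or 57.3% (48.1 to 66.5%) and 61.9 reads or 50.2% (41.2 to 59.5%). Its main position, chr8:11448456-11448654, held 78.1% of the gene's reads, the highest such share of the 10 genes. The miR-29 family came after let-7 on Col4a2 with 19.8 and 20.8 reads.

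Col6a1, Col6a2 and Col6a3 encode the 3 chains that assemble into type VI collagen. Col6a3 (chr1:90766860-90844001, minus strand) had 303 control and 317 mimic reads, and Col6a1 and Col6a2 had fewer than 100 each. On Col6a3 the miR-29 family led with 78.1 reads or 25.8% (20.9 to 31.1%) and 76.7 reads or 24.2% (19.7 to 29.4%), most of them at chr1:90767158-90767501 near the 3′ end. This gene had the widest spread of positions after Col1a2, 23 against 30, and its miR-125-5p reads, 34.3 and 33.95, were 11.3% and 10.7% of the gene. Col6a2 (chr10:76595756-76623630, minus strand) had 78.2 and 72.5 reads, with let-7 at 15.9 and 17.4 reads and miR-29 at 18.0 and 11.4. Its profile was the least alike between the libraries, with a cosine of 0.735, against 0.901 to 0.994 for the other 9 genes.

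Col6a1 (chr10:76708792-76726044, minus strand) was the member with the fewest miR-29 reads. Of its 82.7 reads in the control 0 belonged to miR-29 (interval 0 to 3.69 reads), and 2.75 of its 93.7 reads did so in the mimic. It was led by the miR-15/16 family with 28.1 and 23.8 reads, almost all at chr10:76725822-76725947, next to the gene start. The miR-23 family followed with 14.5 and 14.9 reads, most of them at chr10:76708834-76708950 next to the 3′ end. Positions next to the gene start were led by the miR-15/16 family in both libraries on Col1a2, Col5a1, Col6a1 and, with fewer than 10 reads each, Col4a1 and Col4a2. They were led by miR-29 on Col3a1 and by let-7 on Col5a2. The map of bound positions shows these starts and the larger cluster at the 3′ end.

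**Figure D2:**
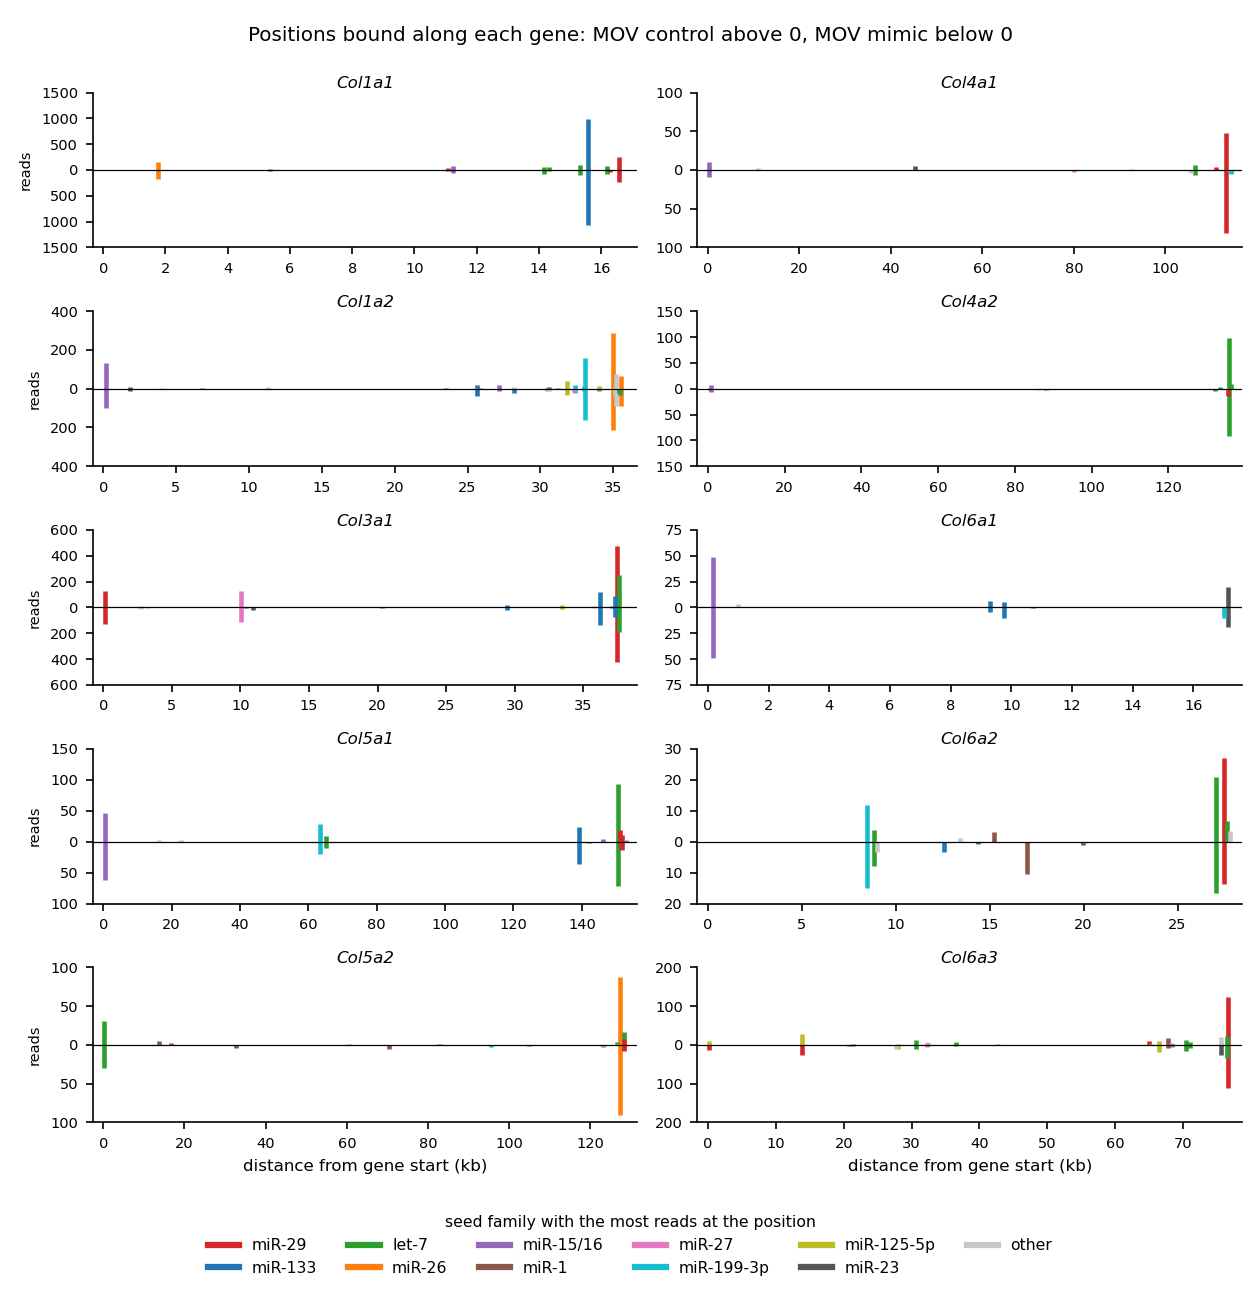
Bound positions along each collagen gene, by distance from the gene start in kilobases on the gene's own strand. Bars give reads at a position, with the MOV control above 0 and the MOV mimic below 0 on linear axes that differ between genes, and the color gives the seed family with the most reads there. The main position of Col1a1 is led by miR-133 (987 and 1073 reads), that of Col3a1 by miR-29 (479 and 425 reads) and that of Col1a2 by miR-26 (286 and 211 reads), and on every gene but Col6a2 the tallest bar stands at the same place in both libraries.

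**Figure D3:**
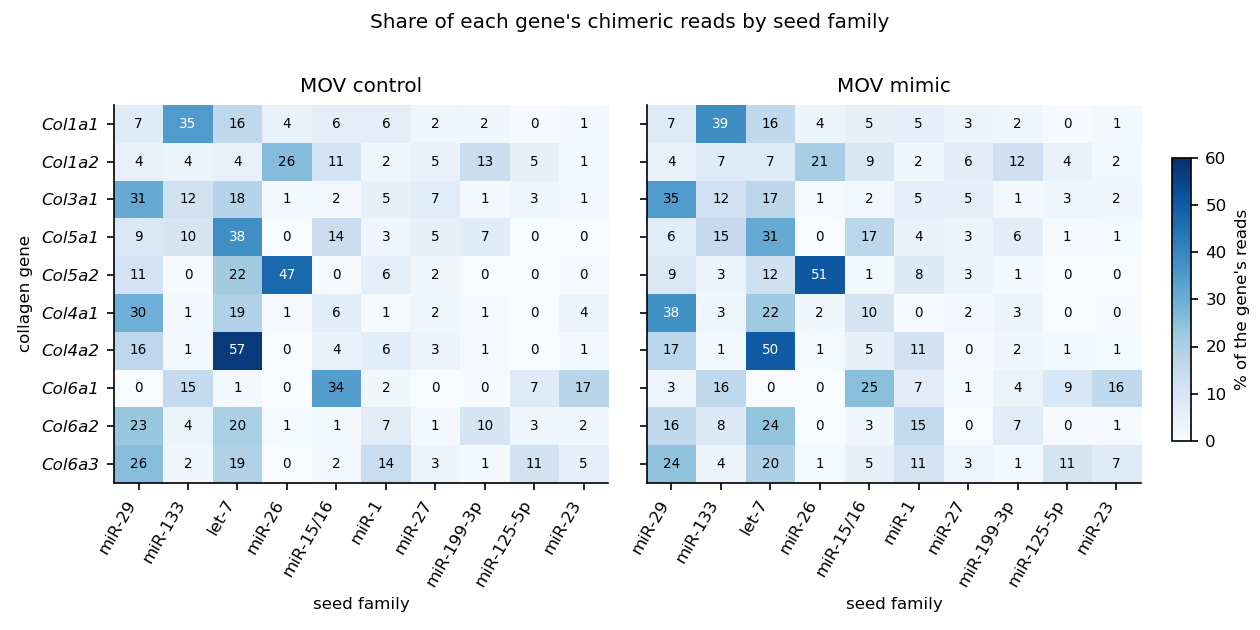
Share of each gene's chimeric reads held by the 10 seed families with the most reads on the collagens, in percent, for the MOV control (left) and the MOV mimic (right). The miR-133 family stands out on Col1a1 (35.1% and 38.6%), miR-26 on Col1a2 and Col5a2, let-7 on Col4a2 and Col5a1, and miR-29 on Col3a1, Col4a1 and Col6a3.

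The next question was which miRNAs the collagens bound compared with the rest of the muscle RNA. The miR-29 family made up 14.6% of control reads on the collagens (13.6 to 15.5%) and 14.9% of mimic reads (13.96 to 15.9%), against 2.14% and 2.215% of the reads outside the collagens. That is 6.81 and 6.74 times as much. Leaving out Col3a1, which held the most miR-29 reads, the share on the other 9 genes was still 9.08% and 9.22%. In both libraries the interval of the miR-29 share lay above its share outside the collagens on 9 of the 10 genes, with Col6a1 the exception. Among all 442 genes with at least 50 reads in each library, the collagens included, this held for 14.3% with control reads and for 13.1% with mimic reads. Read from the side of the miRNA, 13.2% of all control and 11.9% of all mimic reads of miR-29 lay on these 10 genes, the highest value among 48 families with at least 200 reads in each library.

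The muscle-enriched families went the other way, except that miR-133 on Col1a1 lay above its outside share in both libraries, at 35.1% and 38.6%. The miR-1 family, with 263 control and 272 mimic reads on the collagens, had 5.18% and 5.34% of the collagen reads against 18.7% and 19.7% elsewhere. The interval of its share was below the outside share on 10 of 10 genes in the control and 9 of 10 in the mimic, Col6a2 being the exception. Among the 442 genes this held for 52.9% and 52.5%. The methods describe amplification of cDNA with a miR-1 primer, and whether these libraries passed through it was not established. The miR-133 family had 17.1% and 19.99% of the collagen reads against 23.7% and 25.2% elsewhere, and 73.4% and 72.0% of its collagen reads lay on Col1a1. Without Col1a1 its share was 7.11% and 8.94%, and its interval was below the outside share on 8 of 10 genes in the control and 9 of 10 in the mimic, against 51.4% and 55.2% of the 442 genes. On 12 sarcomere genes, chosen as a set expressed in the fibers themselves, the miR-133 family held 52.6% and 52.5% of the reads.

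The let-7 family had 16.7% and 16.002% of the collagen reads against 12.6% and 11.5% elsewhere, and its interval was above the outside share on 6 and 7 of the 10 genes, against 17.2% and 19.2% of the 442 genes. The miR-26 family had 8.16% and 7.04% against 3.43% and 3.54%, most of it on Col1a2. The miR-15/16 family had 6.16% and 5.76% against 2.74% and 2.48%, and miR-199-3p 3.996% and 4.105% against 1.33% and 1.07%. On 16 other matrix genes, among them Fn1, Postn and Sparc, miR-29 had 4.05% and 4.405%, miR-26 0.694% and 1.103% and miR-1 34.0% and 36.5%. The intervals of these 3 families on the collagens and on these matrix genes lay apart in both libraries, while those of miR-199-3p and miR-15/16 overlapped. Fn1 alone had 1631 of the 5060 control and 1391 of the 4336 mimic reads on the matrix genes. Of the Fn1 reads, 2155 over both libraries were of miR-206-3p, so the miR-1 share of the matrix genes rested largely on Fn1. That share without Fn1 was not computed.

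**Figure D4:**
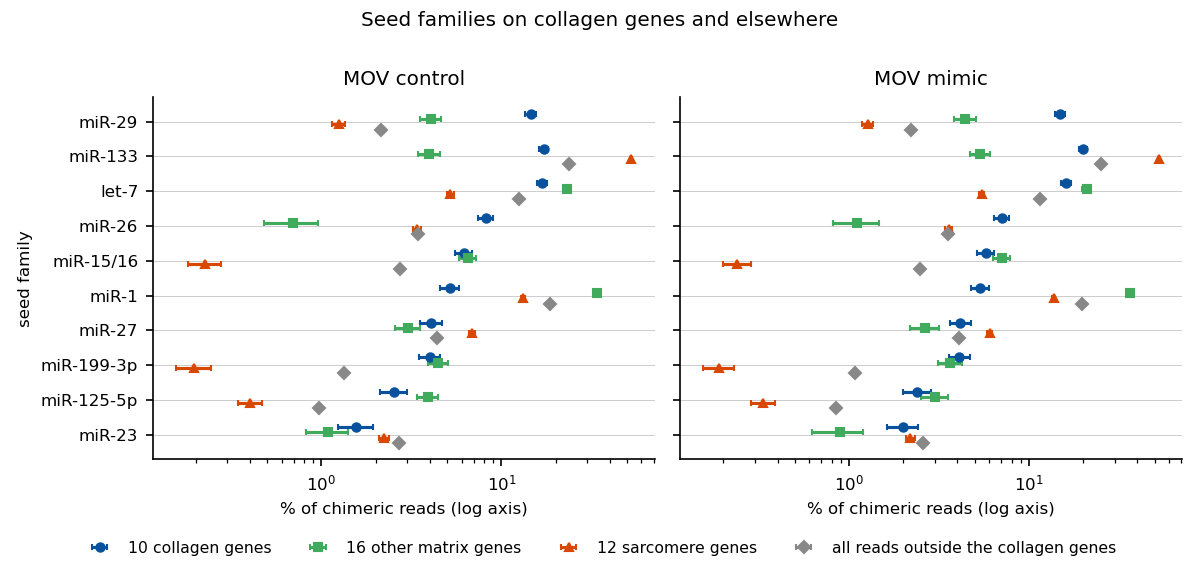
Share of chimeric reads (percent, log axis) held by each seed family on the 10 collagen genes, 16 other matrix genes, 12 sarcomere genes and all reads outside the collagens, with 95% Clopper-Pearson intervals, for the MOV control (left) and the MOV mimic (right). For miR-29 the collagen genes lie to the right of the other sets, at 14.6% and 14.9%, and for miR-1 they lie to the left of them, at 5.18% and 5.34%.

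Matches to the seeds were counted in 1 protein-coding transcript per gene, taken by gene name from GENCODE for the older mm9 build, since no exon annotation of GRCm38 was used. The letters searched, on the transcript strand, were TGGTGCT for miR-29, GGACCAA for miR-133, TACTTGA for miR-26, CTACCTC for let-7, ACATTCC for miR-1 and TGCTGCT for miR-15/16. The miR-29 letters occurred in the 3′ UTR of 8 of the 10 collagen transcripts, 12 times in all, against 10.4% of the 22611 transcripts searched. The exceptions were Col1a2 and Col6a1. The miR-29 letters were in the coding sequence of 7 members, against 17.8% of all transcripts, and occurred there 59 times, 21 of them in Col1a1. Coding matches were not particular to miR-29. The miR-133 letters were in the coding sequence of 8 members (11.74% of all transcripts) and the miR-15/16 letters in that of 9 (29.67%). The let-7 and miR-26 letters were each in the coding sequence of 1 member, and the miR-1 letters in that of 0 members. The counts of matches were not adjusted for length or for sequence content such as repeated codons. The coding sequences of the members ran from 2802 nt in Col6a2 to 7974 nt in Col6a3, so these counts do not measure enrichment. The let-7 letters were in the 3′ UTR of 4 members (7.22% of all transcripts), the miR-1 letters in 2 (7.72%), the miR-15/16 letters in 2 (16.5%) and the miR-26 letters in 1, Col1a2 (7.35%). The miR-133 letters were in no member's 3′ UTR (6.09% of all transcripts) and nowhere in the Col1a1 transcript, which says only that these letters are not there.

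The miR-29 matches in the 3′ UTRs are printed with 15 bases before the match and 1 after it, 5′ to 3′, with the match in capitals, because they are the letters that pair with the family seed shown above. UTR bases are counted from 1 at the first base of the UTR to the first base of the match. These windows come from the transcript and not from the peaks, and their place relative to the peaks was not analysed, because the builds differ.
Col1a1, UTR base 919: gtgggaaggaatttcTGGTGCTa
Col3a1, UTR base 235: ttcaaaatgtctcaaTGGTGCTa
Col5a1, UTR base 988: ataactatgaacattTGGTGCTg
Col5a1, UTR base 1018: tacacttgtctcttgTGGTGCTa
Col5a1, UTR base 1334: gttgctgaatgtttgTGGTGCTa
Col5a1, UTR base 1706: cacagagagtcactcTGGTGCTt
Col5a2, UTR base 1112: cttttcttttaatgaTGGTGCTa
Col4a1, UTR base 33: gccaccgtcacaacaTGGTGCTa
Col4a2, UTR base 43: gtgggaaggccacgtTGGTGCTt
Col4a2, UTR base 214: ccaccacacccagctTGGTGCTt
Col6a2, UTR base 841: gagcacaaatgggggTGGTGCTa
Col6a3, UTR base 174: cgtgacctgtcaataTGGTGCTa
In 8 of the 12 windows the match was followed by an A.

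Mimic and control were then compared to see whether the reads on the collagens differed with the miR-1 mimic. Divided by library totals, the 10 genes together had 0.899 times as many reads in the mimic (95% conditional binomial interval 0.864 to 0.935). The raw sums, 5086 and 5098, were nearly the same, and the library totals differed by a ratio of 1.12. On the divided scale 8 of the 10 genes were below 1, with a median of 0.922, and among all 2243 genes with at least 10 reads in each library 57.7% were below 1, with a median of 0.9398. In raw reads, not divided by the totals, 4 of the 10 were below 1, namely Col3a1, Col5a1, Col5a2 and Col6a2. At 1.5-fold, 0 of the 10 members were higher and 0 lower in the mimic, while 7.71% of the 2243 genes were higher and 13.2% lower. Many of those genes had fewer reads than any member. Among the 442 genes with at least 50 reads in each library, as all 10 members had, 61.5% were below 1. Their median was 0.945 and their 5th and 95th percentiles were 0.692 and 1.38, so few of them passed 1.5-fold either.

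By gene, Col3a1 had the lowest ratio, 0.805 (0.743 to 0.872). Col1a1 had 0.937 (0.878 to 0.999), Col1a2 0.924 (0.843 to 1.01) and Col5a1 0.841 (0.699 to 1.01). The genes above 1 were Col4a1 with 1.28 (0.951 to 1.75) and Col6a1 with 1.016 (0.748 to 1.38). The other 4 genes lay between 0.832 and 0.937, with intervals that included 1. By chain type, types I, III and V together had 0.888 (0.852 to 0.926), type IV 1.06 (0.874 to 1.29) and type VI 0.933 (0.820 to 1.06), and the intervals of these groups overlapped.

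At single positions the libraries differed in places. The miR-26 position of Col1a2 went from 286 reads to 211, a ratio of 0.663 (0.551 to 0.793). The let-7 position of Col3a1 went from 252 reads to 189, a ratio of 0.672 (0.554 to 0.815), and its main miR-29 position had a ratio of 0.795 (0.696 to 0.908). The main position of Col4a1 went from 48.3 reads to 81.0, a ratio of 1.505 (1.05 to 2.21). The main position of Col1a1 had a ratio of 0.975 (0.893 to 1.06). Without the peak with the most reads of each gene, the ratio of the 10 genes was 0.899, as with it, but that of Col1a1 became 0.811 and that of Col1a2 1.04.

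By family, the reads of miR-26 on the collagens had a ratio of 0.775 (0.672 to 0.895) while those outside had 1.03 (1.002 to 1.06). Reads of miR-133 had 1.05 (0.957 to 1.15) on the collagens and 1.06 outside, and reads of miR-29 had 0.922 (0.832 to 1.022) and 1.04. On Col1a2 the miR-133 family went from 32.8 reads to 71.0, a ratio of 1.94 (1.26 to 3.01). The miR-26 reads of Col1a2 went from 243 to 197, a ratio of 0.727 (0.599 to 0.881). A link between these changes was not tested. Both were picked from many values of 1 family on 1 gene, so their intervals do not test a change. The interval also lay above 1 for let-7 on Col1a2, with a ratio of 1.546. It lay below 1 for miR-15/16 on Col1a1 and Col1a2, for let-7 on Col3a1, Col5a1 and Col5a2, and for miR-27 on Col3a1. The delivered miRNA itself, miR-1a-3p, had 176 control and 188 mimic reads on the collagens, a ratio of 0.957 (0.776 to 1.18). Outside the collagens its ratio was 1.17 (1.16 to 1.19), which lies inside the collagen interval, and the difference between these ratios was not tested. Its share of collagen reads was 3.46% and 3.68%.

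Entries of the same miRNA that overlapped in both libraries were compared pairwise. Of the 1898 control entries on the collagens 50.2% (47.9 to 52.4%) were overlapped in the mimic, against 35.8% of the entries elsewhere. This rose with reads, from 36.3% of entries under 1 read to 93.3% of those with 3 to under 10 reads and to all 91 with 10 reads or more. Elsewhere the corresponding values were 23.4%, 81.7% and 98.7%. There were 815 pairs on the collagens that were each other's largest overlap, with a median log2 ratio of -0.16 (-0.22 to -0.12) after division by library totals, which is the value of a pair with equal raw reads. The 30840 pairs elsewhere had -0.11 (-0.12 to -0.10). Of the 190 collagen pairs with at least 3 reads in both libraries, 24 were at least 1.5-fold higher in the mimic, or 12.6%, and 55 were at least 1.5-fold lower, or 28.9%. Over all 6418 such pairs the shares were 18.1% and 20.7%. Pairs at 1 position share a peak, so they are not independent of each other.

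The largest rises among these pairs were miR-27b-3p on Col1a2 at chr6:4538628-4538726, from 5.01 to 20.6 reads (ratio 3.69, 1.38 to 12.8), miR-23a-3p on Col6a3 at chr1:90768322-90768403, from 3.87 to 13.7 reads (3.17, 0.986 to 13.1), and let-7d-5p on Col1a1 at chr11:94950347-94950386, from 3.18 to 9.20 reads (2.59, 0.671 to 15.4). The largest falls were miR-26a-5p on Col1a1 at chr11:94937943-94938059, from 43.0 to 6.22 reads (0.130, 0.0435 to 0.295), miR-15a-5p on Col1a1 at chr11:94947433-94947486, from 15.9 to 4.63 reads (0.261, 0.0803 to 0.8004), and let-7b-5p on Col5a1 at chr2:28036960-28037137, from 15 to 5.09 reads (0.304, 0.0850 to 0.865). These pairs were picked as the extremes of the 190, so their intervals do not test a change. Of all 190 pairs, 11 had an interval that excluded 1. Some of the named pairs depended on how peaks were split. When all peaks of a position were merged, miR-26a-5p had 47.3 control and 38.2 mimic reads there (0.725, 0.460 to 1.14), let-7b-5p had 15 and 6.73 reads (0.403, 0.144 to 1.09) and let-7d-5p had 4.35 and 9.20 reads (1.90, 0.563 to 8.96), all with intervals that included 1. The ratios of miR-15a-5p, miR-27b-3p and miR-23a-3p were the same after merging.

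**Figure D5:**
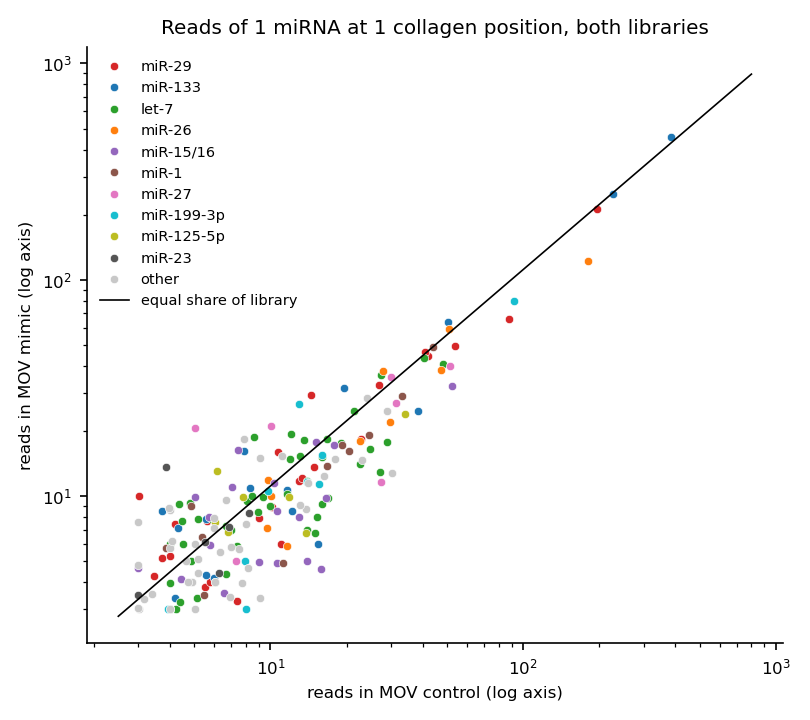
Reads of 1 miRNA at 1 merged collagen position in the MOV control (x axis) and the MOV mimic (y axis), both log axes, for the 199 pairs with at least 3 reads in each library, colored by seed family. The line marks an equal share of both libraries. Of the 199 pairs, 70 lie above the line, and the points with the most reads, miR-133a-3p and miR-133b-3p on Col1a1 and miR-29a-3p on Col3a1, lie close to it.

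Other genes of collagen biology were set beside the 10, and their counts past 1.5-fold can be read against the 7.71% of all 2243 genes that were higher and the 13.2% that were lower. Of 34 further collagen genes, 33 of them with a strand and so measurable, 14 had reads in either library and 6 had at least 10 reads in both, none of these at least 1.5-fold higher and 1 lower, Col8a1, with 122 control and 70.3 mimic reads. Of the Col8a1 reads, 122 over both libraries were of the single miRNA miR-466i-5p. Read in 1 library only, and so without a ratio, were Col8a2 with 12.8 control reads, Col27a1 with 3.66 control reads and Col18a1 with 2.24 mimic reads. Col12a1, which decorates fibrils of type I, had 122 and 145 reads, and Col15a1 had 58.8 and 69.8. Of 16 genes for collagen synthesis and crosslinking 9 had at least 10 reads in both libraries, with a median ratio of 0.718, 0 at least 1.5-fold higher and 2 lower, Loxl2 and Adamts2. Adamts2 had 36.0 control and 23.5 mimic reads, and 33.8 of them over both libraries were of miR-466i-5p. The 9 measured genes include Plod2, a lysyl hydroxylase, with 54.8 and 43.9 reads. Of 8 genes for breakdown and its control 5 were measured so, with a median of 0.778, 0 at least 1.5-fold higher and 1 lower, Mmp2, a gelatinase, with 54.5 and 39.0 reads. In the same list Mmp14, a membrane-bound collagenase, had 128 and 124 reads. Mmp13, with 13.7 control and 0 mimic reads, and Timp1, with 0 and 3.72, did not reach the minimum in both libraries. The 16 other matrix genes had a median ratio of 0.769 and summed reads of 5060 and 4336, and the 12 sarcomere genes a median of 1.13 and summed reads of 40413 and 52886.

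The 6 muscle fiber markers summed to 34293 and 44897 reads, and 6 of 6 had at least 10 reads in both libraries. Their median ratio was 1.05, and 2 of the 6 were below 1, Myh4 with 0.700 and Atp2a1 with 0.924. The rise in the sum lay mostly on Ttn, with a ratio of 1.21, and Myh1, with 1.60. The 6 fibroblast markers summed to 292 and 278 reads, with Dcn at 136 and 102 reads, Lum at 42.1 and 73.5, and none of the 6 at 0. Endothelial markers summed to 21.3 and 49.4 reads with Vwf at 0 in both, and macrophage markers to 90.8 and 145 reads over the 5 that had a strand, with Cd68 at 0. Adgre1 had no strand in the tables used here and was not measured. The 2 satellite cell markers and the 2 fat cell markers had no read in either library, and the 3 Schwann cell markers had 3.24 reads and 0. The median ratio of the 5 fibroblast markers with at least 10 reads was 0.771, and that of the 4 macrophage markers was 1.38. The part of these markers in the collagen values was not tested.

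Genes whose reads were spread over miRNAs most like those of the 10 collagens together were sought among 504 genes with at least 100 reads over both libraries, by the cosine over 252 miRNA names. Among the closest were Pfkm with 0.882, Acta1 with 0.832, Macf1 with 0.831 and Eda2r with 0.805, and the median gene had 0.530. In each of these miR-133a-3p had the most reads, as it did on the collagens together. Among the members, the closest pairs were Col3a1 with Col4a1 at 0.860 and Col3a1 with Col6a3 at 0.845, which share miR-29a-3p as the first miRNA, and the farthest were Col5a2 and Col6a1 at 0.0416.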

How the data were processed

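Chimeric eCLIP-seq was performed by the authors on MOV control and MOV mimic plantaris, 1 library each. Per the methods, reads were trimmed, filtered for repeats, aligned with STAR and freed of PCR duplicates, and peaks were called with CLIPper. The methods also describe a miRNA-specific step in which cDNA was amplified with a miR-1 primer. Whether the 2 libraries used here passed through that step was not established, and no value was adjusted for it. The submitters' processing notes name UMI-tools 1.1.1, cutadapt 3.2, STAR 2.7.7a, Bowtie 1.2.3 and HOMER 4.11. The methods name mm9, but the notes name mm10, which the coordinates follow. The deposited values are estimated counts of chimeric reads of 1 miRNA in 1 peak, not scaled to depth by the authors. Only 17.4% and 16.7% of them are whole, and the origin of the fractions was not given in the sources used here.

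Genes were assigned by overlap of at least 1 nt with the RefSeq span on its strand. The strand of 8 members came from the promoter table and that of Col1a1 and Col5a2 from GENCODE by name, and no member shared span and strand with another gene. Families were set by bases 2 to 8, with miR-133a-3p, miR-1a-3p and miR-23b-3p placed by name. Reads have exact Poisson intervals, shares Clopper-Pearson intervals, ratios conditional binomial intervals, all at 95% and after rounding the reads, and medians have order-statistic intervals. The summed chimeric reads, 232408 and 259207, served as depth. With 1 library per group no test between groups was made. The interval code was tested on simulated data. Named items were all 10 members, the miRNAs with the most reads on them, the main position of each gene, and the 3 largest rises and falls among pairs with at least 3 reads. The members and lists were chosen with earlier results of these data known. Python 3.11.15, pandas 2.3.3, NumPy 2.4.6, SciPy 1.17.1 and Matplotlib 3.10.9 were used.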

Additional observations from a re-analysis of the deposited data

How the results depend on the processing

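No paired analysis was possible because the control and the mimic had a single library each. The summed ratio of the collagen genes depended on scaling: with raw reads, not divided by library totals, it was 1.002 in place of 0.899, and Col1a1 had 1.04 in place of 0.937, so a direction below 1 rests on that division. With a minimum of 3 reads the summed ratio was 0.864.
The share of the collagens among chimeric reads, 2.19% and 1.97%, was 2.03% and 1.75% counted in entries, 2.53% and 2.27% without the mitochondrial chromosome and Rn18s-rs5 in the total, 2.44% and 2.11% with a minimum of 3 reads, and 1.27% and 1.14% without the peak with the most reads of each gene. In the same order of control and mimic, the share of miR-133a-3p, 11.6% and 13.7%, was 3.37% and 4.09% counted in entries, 14.2% and 16.7% with a minimum of 3 reads, 6.69% and 7.78% without those peaks, and 17.1% and 19.99% for its family. The share of miR-29a-3p, 8.63% and 9.48%, was 2.69% and 3.29%, 10.4% and 11.6%, 5.31% and 6.33%, and 14.6% and 14.9%.
Entries found in both libraries, 50.2% in the control, were 37.9% with 50% reciprocal overlap, 95.4% with a minimum of 3 reads and 86.9% with any miRNA. The median change at shared entries was 0 in raw reads. The number of entries fell to 284 and 280 with a minimum of 3 reads and to 817 and 848 with a minimum of 1 read. With the miR-199-3p names kept as 2, chosen after seeing the data, 48.7% of entries were shared, and with merged positions in place of pairs of entries, also chosen after seeing the data, the median change stayed -0.16. The minimums drop entries by construction, and other causes were not tested. Entries under 1 read, 57.0% and 51.8% of those on the collagens, limit what single miRNAs on the smaller genes can show.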
